A study of Mus musculus with 4 samples.

Results

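The genes described here are mouse DNA repair genes, taken as all protein-coding genes of the GRCm38 RefSeq annotation whose symbols start with Ercc, Fanc, Xrcc, Msh, Mlh or Brca, with Rad, Parp or Lig and a number, or with Pol and the letter of a DNA polymerase. There were 92 such genes among 21896 protein-coding genes. A peak of open chromatin belonged to a gene when it lay within 1000 bases of either end of the gene span, and 21 of the 92 genes had such a peak, 1 each, among 3187 peaks. The letters Pold also take in Poldip2 and Poldip3, which are not polymerases. The rule used symbols and positions and no peak height, but it was made with earlier results of these data known.

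Accessibility had been measured by ATAC-seq, in which the Tn5 transposase inserts sequencing adapters into exposed, nucleosome-free DNA. The cells were CD8+ T cells from the spleen of OTI:Cas9 mice (OT-I is a T cell receptor transgene that yields CD8+ T cells of 1 specificity). All cells were electroporated with complexes of Cas9 protein and a guide RNA: sgNTC in the control group (genotype label Prdm12-wt) and sgPrdm12 in the edited group (genotype label Prdm12-ko). Each group had 2 libraries, replicate 1 in batch 1 and replicate 2 in batch 2. The series text calls the control cells non-edited, whereas the treatment protocol lists sgNTC among the guides. The sources used here give neither the age of the mice, nor the share of edited cells, nor whether replicates were separate animals. All p-values therefore reflect only library-to-library spread, which could be technical. The comparison asks which regulatory regions respond to loss of Prdm12, a PR domain zinc finger gene best known from pain-sensing neurons.

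DNA repair is divided among pathways that recognise different lesions. Nucleotide excision repair removes bulky adducts, with a branch that starts at stalled RNA polymerase. Mismatch repair corrects replication errors, homologous recombination and end joining repair double-strand breaks, the Fanconi anaemia proteins act on crosslinks, and specialised polymerases copy past lesions. T cells that divide after activation depend on these pathways during replication, and end joining is also needed earlier to assemble the T cell receptor genes.

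The libraries were shallow, with 20427 to 58068 reads in the 3187 peaks, sgNTC replicate 2 being the deepest and sgPrdm12 replicate 2 the shallowest. The share of reads in peaks at ends of protein-coding genes was 70.0% (sgNTC replicate 1), 74.2% (sgNTC replicate 2), 73.5% (sgPrdm12 replicate 1) and 64.8% (sgPrdm12 replicate 2), so sgPrdm12 replicate 2 stood apart. No peak lay within 5000 bases of Prdm12, and read counts per peak could not show the edit itself. None of 10 genes listed for CD8+ T cells, such as Cd8a and the general T cell gene Cd3e, had a peak in this table. Nor did any of 8 B cell or 6 NK cell markers. The lists for CD4, regulatory and gamma delta T cells, myeloid cells and erythroid cells had 1 gene with a peak each, with 0 to 13 reads per library. The sources used here do not say whether the table is complete, and the absence of a peak from it does not mean closed chromatin.

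The promoters of 5 repair genes are shown because a peak overlapped each: those of the tested genes with the 3 highest and the 2 lowest fold changes among genes with a sequence. They were chosen after the values were seen. Each window runs from 250 bases before to 50 bases after the annotated start site and comes from RefSeq (GRCm38.p6), read along the gene. Capitals mark matches on either strand to motifs of NRF1 (GCGC and TGCGC with any base between them), of SP/KLF factors (GGGCGG), of ETS factors (CCGGAAG), of NFY (CCAAT), of YY1 (AAGATGG), of E2F (TTTGGCGC) and of CRE-binding factors (TGACGTCA).
Ercc6 (chr14:32513271-32513570, plus strand): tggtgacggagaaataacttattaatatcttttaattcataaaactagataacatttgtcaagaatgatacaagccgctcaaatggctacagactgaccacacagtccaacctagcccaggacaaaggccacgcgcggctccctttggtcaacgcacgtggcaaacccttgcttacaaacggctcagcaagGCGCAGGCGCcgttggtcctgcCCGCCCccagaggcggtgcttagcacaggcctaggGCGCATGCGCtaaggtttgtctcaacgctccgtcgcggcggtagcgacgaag
Brca1 (chr11:101551906-101552205, minus strand): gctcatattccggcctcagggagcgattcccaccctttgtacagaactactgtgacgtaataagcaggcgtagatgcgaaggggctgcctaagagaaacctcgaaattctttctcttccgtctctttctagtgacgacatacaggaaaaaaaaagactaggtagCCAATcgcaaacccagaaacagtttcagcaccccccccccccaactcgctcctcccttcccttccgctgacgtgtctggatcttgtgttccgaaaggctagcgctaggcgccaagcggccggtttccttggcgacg
Rad51ap1 (chr6:126939538-126939837, minus strand): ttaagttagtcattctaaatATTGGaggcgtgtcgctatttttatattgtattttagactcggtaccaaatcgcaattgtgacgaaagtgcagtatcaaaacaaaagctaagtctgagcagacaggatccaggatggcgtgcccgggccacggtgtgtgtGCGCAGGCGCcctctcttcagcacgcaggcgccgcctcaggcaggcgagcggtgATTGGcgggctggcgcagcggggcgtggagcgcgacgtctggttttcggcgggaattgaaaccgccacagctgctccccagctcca
Polh (chr17:46202592-46202891, minus strand): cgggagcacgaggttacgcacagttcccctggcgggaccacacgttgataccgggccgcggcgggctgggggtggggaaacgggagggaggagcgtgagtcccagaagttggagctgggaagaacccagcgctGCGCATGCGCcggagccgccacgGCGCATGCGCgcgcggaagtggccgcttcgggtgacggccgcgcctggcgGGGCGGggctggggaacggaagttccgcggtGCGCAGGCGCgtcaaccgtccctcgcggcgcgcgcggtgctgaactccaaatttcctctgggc
Parp3 (chr9:106476900-106477199, minus strand): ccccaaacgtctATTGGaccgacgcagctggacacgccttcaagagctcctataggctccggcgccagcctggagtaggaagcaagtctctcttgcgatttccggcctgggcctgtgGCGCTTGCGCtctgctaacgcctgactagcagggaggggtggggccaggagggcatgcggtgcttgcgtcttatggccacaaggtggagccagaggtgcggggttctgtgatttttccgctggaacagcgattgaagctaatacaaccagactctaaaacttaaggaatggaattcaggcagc

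The Ercc6 window held an NRF1 motif from 59 to 50 bases before the start site and another across the start site itself, counting the start site as 0. Polh held 3 NRF1 motifs, and Rad51ap1 and Parp3 held 1 each. Brca1 held none of them and a single CCAAT box, from 86 to 82 bases before its start.

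Promoter sequences were found for 18 of the 21 genes with a peak, and 17 of the 18 windows overlapped the peak. A motif of NRF1, an activator of many housekeeping promoters, was present in 9 of these 17 windows (52.9%). The same motif was in 487 of 2131 windows of protein-coding genes that overlapped any peak (22.9%), in 1356 of all 21262 windows (6.38%), and in 8 of 64 windows of repair genes without a peak (12.5%). The NRF1 motifs numbered 12 in 9 genes, and 10 of them, in 7 genes, lay inside the peak; those of Ercc4 and Rad23b did not. GC boxes were in 11 of the 17 windows (64.7%), against 76.4% of all windows that overlapped a peak. ETS motifs were in 4 (23.5%, against 27.4%) and CCAAT boxes in 7 (41.2%, against 47.5%). The E2F motif was found in 1 window (5.88%, against 2.06%), and the YY1 and CRE motifs in none, against 9.67% and 4.74% of all windows that overlapped a peak. Over the 18 windows, 11 of 24 GC boxes, 3 of 6 ETS motifs, 7 of 10 CCAAT boxes and 0 of 1 E2F motif lay inside the peak. These are matches of letters, not binding sites, and the difference in shares was not tested.

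**Figure D1:**
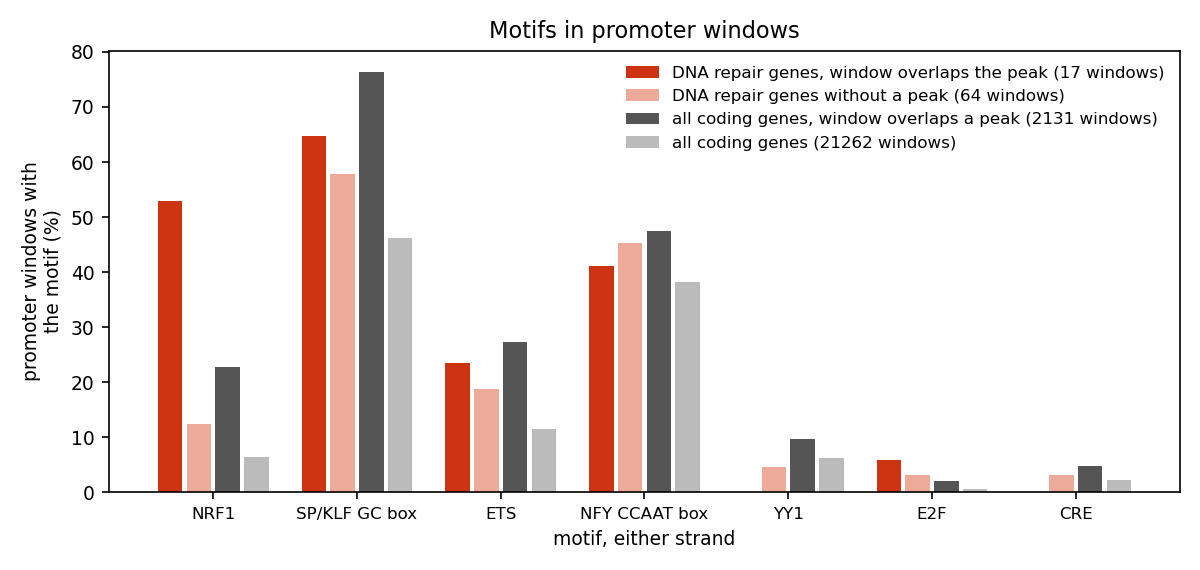
Percentage of promoter windows (300 bases around the start site) that hold each of 7 motifs on either strand. Red bars are windows of DNA repair genes that overlap their own peak, and light red bars windows of repair genes without a peak. Dark grey bars are windows of all coding genes that overlap a peak, and light grey bars those of all coding genes. NRF1 is at 52.9% in the red bar and 22.9% in the dark grey bar. The GC box, ETS and CCAAT motifs are lower in the red bars than in the dark grey ones.

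The repair gene windows that overlapped their peak had a median G+C content of 60.0% (range 53.3% to 72.0%). It was 63.0% over all windows that overlapped a peak and 56.3% over all windows. In the repair gene windows that overlapped their peak, the median ratio of observed to expected CpG was 0.94. It was 0.87 in all windows that overlapped a peak and 0.81 at repair genes without a peak. The promoters of repair genes with and without a peak thus had close medians of G+C content, at 59.8% for the 64 windows without.

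By family, of 9 Ercc genes, 3 had a peak (Ercc1, Ercc4 and Ercc6), and 5 of 22 Pol genes had one (Poldip3, Pole3, Pole4, Polh and Poln). Parp2 and Parp3 had a peak among 12 Parp genes, and Rad17, Rad23b, Rad51ap1 and Rad9b were among the Rad genes with one. A single peak was found at Brca1 of 2 Brca genes, Lig3 of 3 Lig genes, Msh3 of 5 Msh genes, Xrcc4 of 6 Xrcc genes and Fancm of 11 Fanc genes. In all, 22.8% of the repair genes had a peak, against 11.4% of all protein-coding genes. Of 124 further DNA repair genes, listed by pathway and outside the symbol rule, 43 (34.7%) had one. No test was made of these shares.

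Most of the peaks sat on the start site. The peak covered the annotated start in 12 of the 18 genes with a known start (66.7%), against 61.3% of 2112 pairs of a gene and a gene-end peak over the whole table. The median width was 482 bases (254 to 758), compared with 417 bases for all 1982 gene-end peaks. A second protein-coding gene ended or started within 1000 bases of the peak at 12 of 21 repair gene peaks (57.1%), compared with 26.4% of all gene-end peaks. The partners included Nbr1 at Brca1, Rrp9 at Parp3, Xpo5 at Polh, Haus3 at Poln, 4933430I17Rik at Pole3, Vps29 at Rad9b, D6Wsu163e at Rad51ap1, Tmem167 at Xrcc4, Fkbp3 at Fancm, and both Ak6 and Taf9 at Rad17. At Lig3, Parp2 and Poldip3 the neighbour was a non-coding gene, Gm11423, the RNase P RNA gene Rpph1 and the small nuclear RNA gene Rnu12. Reads in a shared peak cannot be assigned to either gene.

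Among these repair genes the position of a peak went with this sharing. The same split is not given for all gene-end peaks, so it cannot be called particular to repair genes. The 11 shared peaks with a known start had their centre before the start site of the repair gene at 9 genes, whereas all 7 peaks without a second coding gene were centred inside the gene, by 55 to 247 bases. The Brca1 peak lay wholly upstream, from 636 to 61 bases before the start and so towards Nbr1. The Fancm peak, next to Fkbp3, was the farthest from the start site of the promoter sequence, ending 1442 bases before it. It nevertheless overlapped the upstream end of the Fancm gene span, which begins before that start site. The peak of Ercc1 was the nearest to the limit of the distance rule, 723 bases from the end of the gene span, although it covered the start site of the RefSeq transcript. Outside the rule but within 5000 bases, peaks lay 1181 bases away at Lig4, 1456 at Rad21, 1463 at Polg, 1689 at Fance and 4012 at Fancd2os. The Lig4 peak held 3 and 28 reads in the sgNTC libraries against 3 and 7 with sgPrdm12. The Rad21 peak held 7 and 16 reads against 8 and 4. Only the Fance peak had enough reads to be tested between the guides, with a log2 fold change of -0.26 ± 0.41 (SE).

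**Figure D2:**
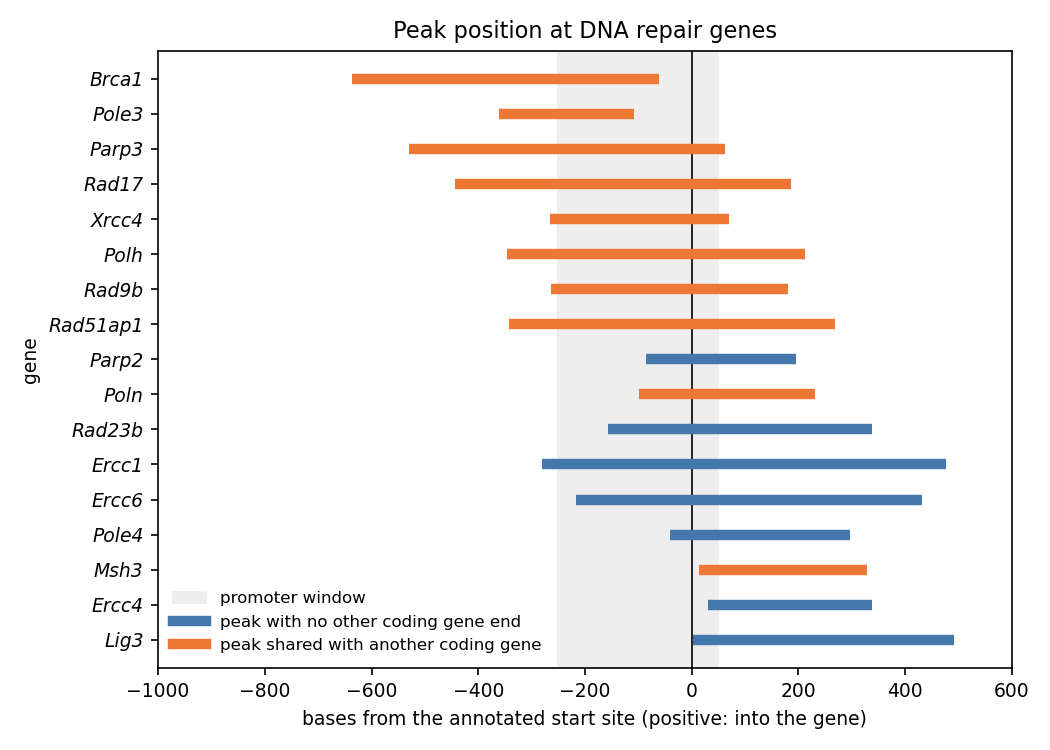
Extent of each peak in bases from the annotated start site of 17 repair genes, with positive values running into the gene; the shaded band is the promoter window. Orange bars are peaks shared with a second coding gene and blue bars peaks without one; the blue bars are all centred to the right of 0, and the Brca1 bar ends 61 bases before the start. Fancm, whose peak ends 1442 bases before the start site of its promoter sequence but overlaps the upstream end of its gene span, is not drawn.

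All 21 peaks had at least 1 read in every library, which held for 2416 of the 3187 peaks in all. Their median was 51 reads over the 4 libraries together (17 at Parp2 to 101 at Brca1), compared with 44 reads at gene-end peaks. The count filter used for the test kept 71.4% of the repair gene peaks, against 48.4% of gene-end peaks. Counts were scaled to 10000 reads in tested peaks and compared between genes per kilobase of peak. On that scale the median repair gene peak was at 13.5 normalised reads per kilobase, against 11.4 for gene-end peaks, and 14 of 21 repair gene peaks were above the gene-end median. Brca1 was the highest, at 21.1 normalised reads per kilobase, followed by Pole3 at 20.8, Poldip3 at 19.6 and Ercc6 at 19.0. Parp2, a poly(ADP-ribose) polymerase of single-strand break repair, was among the lowest at 6.62. The ranges of the 4 libraries overlapped at all 20 pairs of neighbours in this order.

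Together the 21 peaks took 251 of 28749 reads in sgNTC replicate 1, or 0.873% (95% Wilson interval 0.772 to 0.987). The share was 0.852% (0.781 to 0.931) in sgNTC replicate 2. It was 0.892% (0.790 to 1.01) in sgPrdm12 replicate 1 and 0.935% (0.812 to 1.08) in sgPrdm12 replicate 2. Both sgPrdm12 libraries were above both sgNTC libraries, but all 4 intervals overlapped, and they cover counting error only. The group means were 0.863% ± 0.0146 and 0.913% ± 0.0305 (SD, n = 2), and the sgPrdm12 library exceeded its sgNTC counterpart by 0.0187 percentage points within the first batch and by 0.0826 within the second. In bulk libraries, a change in fewer cells and a smaller change per cell cannot be told apart. As a share of reads in gene-end peaks alone, the difference was -0.0344 points within the first batch and 0.294 within the second, and so it changed direction.

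No repair gene peak differed between the guides at the threshold. The count filter kept 15 of the 21 peaks, and 0 of these passed edgeR's quasi-likelihood test at an adjusted p of 0.05, against 0 of 1125 tested peaks (0%); the smallest adjusted p among the repair genes was 0.73. Before adjustment, 3 of the 15 were under a p of 0.05 in edgeR, all higher in sgPrdm12 (Ercc6, Brca1 and Rad51ap1) and none lower. Over all tested peaks 3.02% were higher and 2.04% lower by that rule, 5.07% in either direction. DESeq2 gave 0 of the 21 after adjustment (0%) and 1, Ercc6, without it, where 0.879% of all its peaks passed unadjusted. Ercc6 was known from earlier results of these data when the genes were chosen, so these counts are a description. The median log2 fold change of the 15 was 0.18, against 0.02 over all tested peaks, with 10 of 15 above 0, against 52.1% of all tested peaks. The median log2 ratio of the 15 was 0.19 within batch 1 and 0.42 within batch 2. Over all tested peaks it was 0.06 and 0.04. With a median standard error of 0.41, the 95% interval lay within 4-fold at 14 of the 15 peaks and within 2-fold at 4, compared with 94.0% and 31.5% of all tested peaks. For the majority of single repair genes the interval thus reached beyond 2-fold in at least 1 direction. Log2 fold changes of 0.99 at Ercc6 and -1.11 at Parp3 did not pass the adjusted threshold. Nor did the lowest value over all tested peaks, -3.02. Changes of 2-fold and more could thus be missed at this depth with 2 libraries per group.

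**Figure D3:**
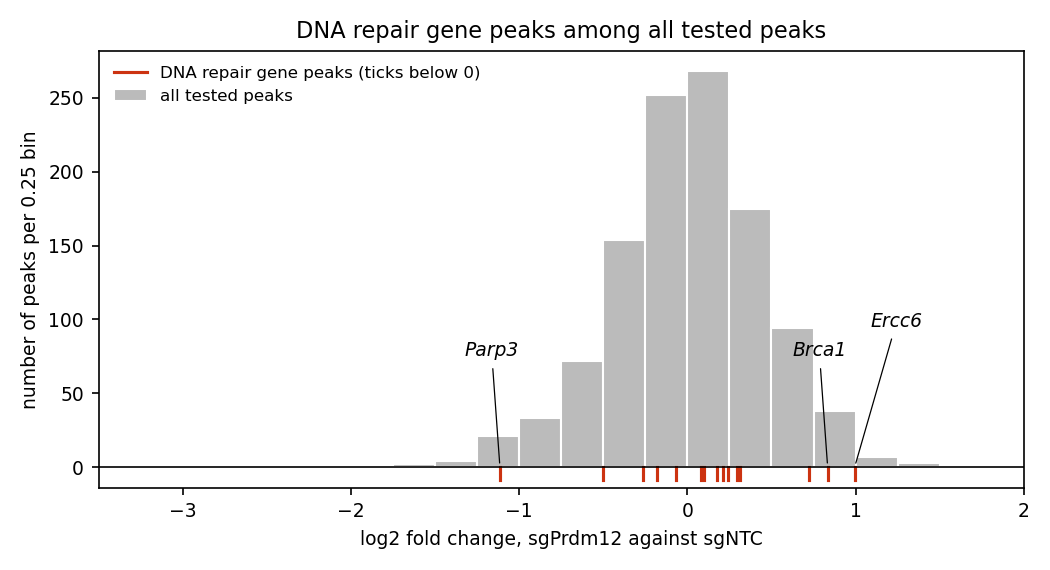
Number of tested peaks per bin of log2 fold change (sgPrdm12 against sgNTC, bins of 0.25; grey bars, 1125 peaks), with the 15 repair gene peaks as red ticks under the axis. The ticks run from -1.11 at Parp3 to 0.99 at Ercc6, within the range of the grey bars.

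In nucleotide excision repair, Ercc6, the DNA translocase that starts repair at stalled RNA polymerase, had the highest fold change of the tested repair genes. Its peak (chr14:32513305-32513952) held 16 and 32 reads in the sgNTC libraries against 30 and 22 with sgPrdm12. That gave 8.23 and 8.06 normalised reads per 10000 in sgNTC and 15.3 and 17.6 in sgPrdm12, so the groups did not overlap. Such non-overlap with higher sgPrdm12 values was found at 16.4% of all tested peaks. The log2 fold change was 0.99 ± 0.30 (SE; 95% interval 0.38 to 1.61; edgeR adjusted p = 0.73), and the log2 ratio was 0.87 within batch 1 and 1.14 within batch 2.

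At Rad23b and Ercc1, also genes of nucleotide excision repair, there was no such separation. Among the further excision repair genes outside the symbol rule it did occur, in both directions. The sgPrdm12 values were higher without overlap at Fen1 and Xab2 and lower without overlap at Tdp1 and Gtf2h5. Over all tested peaks 16.4% were higher and 18.0% lower without overlap. Rad23b, whose protein stabilises the lesion sensor XPC, had 4.12 and 8.82 normalised reads in sgNTC and 5.60 and 12.0 in sgPrdm12, giving a log2 fold change of 0.21 ± 0.43 by the edgeR fit (edgeR adjusted p = 1.00). In both groups its batch 2 library was the higher one, and the log2 ratio was 0.42 within batch 1 and 0.47 within batch 2. With the replicate block in the fit, the log2 fold change of Rad23b was 0.44. Ercc1, which with Ercc4 forms the nuclease that cuts 5′ of the lesion, had 3.09 and 8.82 in sgNTC and 7.13 and 7.20 in sgPrdm12. Both sgPrdm12 values lay between the sgNTC values, and the log2 fold change was 0.08 ± 0.42 (edgeR adjusted p = 1.00). Ercc4 was below the count filter, with 7 and 12 reads in the sgNTC libraries against 6 and 7 with sgPrdm12.

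Among recombination genes, Brca1, which acts in the resection of broken ends, had the next highest fold change. Its peak (chr11:101552016-101552591), shared with the autophagy receptor gene Nbr1, held 19 and 32 reads in the sgNTC libraries against 32 and 18 with sgPrdm12. The normalised values were 9.77 and 8.06 in sgNTC and 16.3 and 14.4 in sgPrdm12, without overlap. The log2 fold change was 0.83 ± 0.30 (edgeR adjusted p = 0.85), with log2 ratios of 0.72 and 0.85 within batches 1 and 2. Rad51ap1, a cofactor of homologous recombination, held 19 and 25 reads in the sgNTC libraries against 22 and 18 with sgPrdm12 (chr6:126939318-126939930). Its normalised values were 9.77 and 6.30 against 11.2 and 14.4, again without overlap. The log2 fold change of 0.72 ± 0.35 (edgeR adjusted p = 0.93) was larger in batch 2, with log2 ratios of 0.19 and 1.20 within batches 1 and 2.

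The 3 peaks with the highest fold changes depended unequally on single libraries. Without sgNTC replicate 2, the deepest library, the log2 fold change was 0.94 at Ercc6, 0.62 at Brca1 and 0.32 at Rad51ap1. Without sgPrdm12 replicate 2, the library with the lowest gene-end share, the values were 0.86, 0.85 and 0.51 in the same order. They were 1.02, 0.94 and 1.00 without sgNTC replicate 1, and 1.12, 0.74 and 0.94 without sgPrdm12 replicate 1. Each of these fits leaves a single library in a group.

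Of the checkpoint genes, Rad17, which loads the checkpoint clamp at damaged DNA, had 8.74 and 8.56 normalised reads in sgNTC and 10.2 and 11.2 in sgPrdm12. The groups did not overlap, but the log2 fold change was only 0.30 ± 0.34 (edgeR adjusted p = 1.00). Its peak is also that of Taf9, a subunit of the general transcription factor TFIID, and of Ak6. Rad9b, a paralogue of the clamp subunit gene Rad9a, had 8.23 and 3.02 in sgNTC and 6.62 and 5.60 in sgPrdm12. Its log2 ratio was -0.30 within batch 1 and 0.93 within batch 2.

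In mismatch repair, Msh3, which recognises insertion and deletion loops, had 6.69 and 4.03 normalised reads in sgNTC and 4.08 and 8.00 in sgPrdm12, so the groups overlapped. The peak is among those shared with a second coding gene. The log2 fold change of 0.18 ± 0.55 joined -0.68 within batch 1 and 1.01 within batch 2 (edgeR adjusted p = 1.00).

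**Figure D4:**
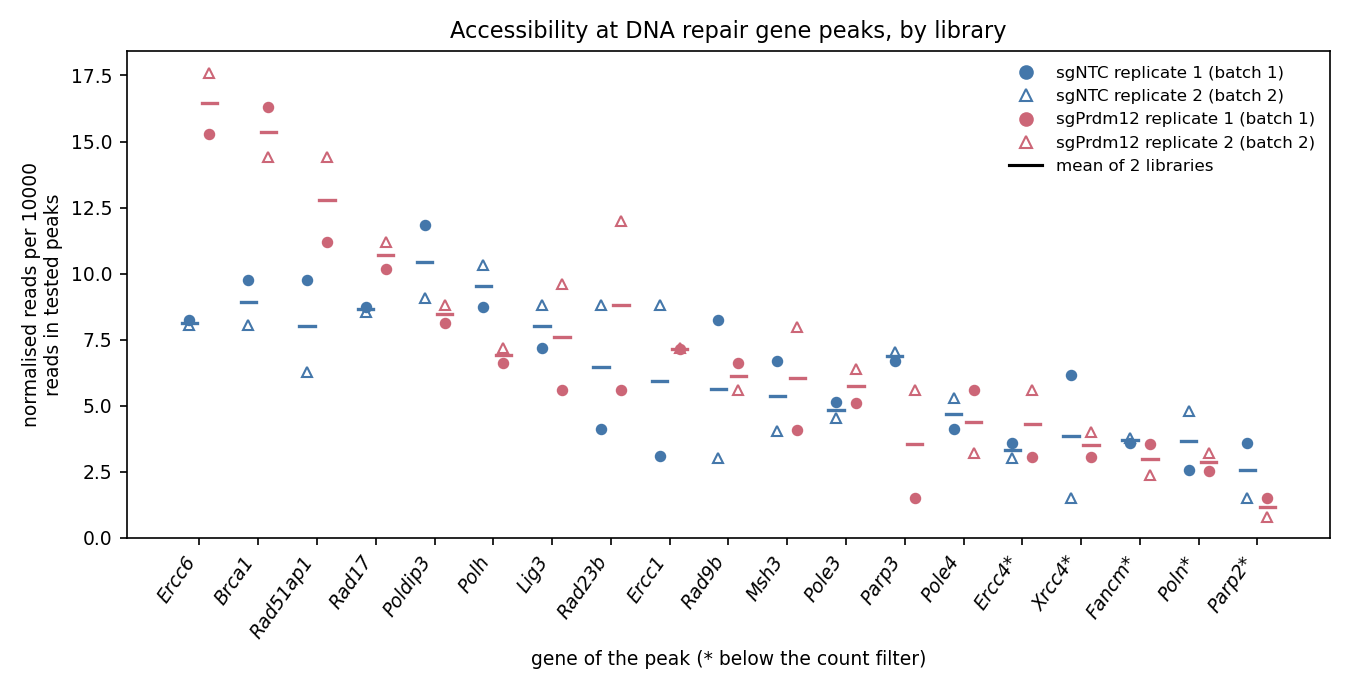
Normalised reads per 10000 reads in tested peaks at 19 repair gene peaks, ordered by mean level; filled circles are replicate 1 (batch 1), open triangles replicate 2 (batch 2), blue sgNTC, red sgPrdm12, and lines the mean of 2 libraries. Red symbols lie above both blue ones at Ercc6, Brca1, Rad51ap1 and Rad17 and below both at Poldip3, Polh and Parp3 among tested peaks; asterisks mark genes below the count filter.

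The polymerase genes lay on both sides of 0. Polh, the polymerase that copies past ultraviolet lesions, held 17 and 41 reads in the sgNTC libraries against 13 and 9 with sgPrdm12 at a peak shared with Xpo5, the exporter of microRNA precursors. The normalised values were 8.74 and 10.3 in sgNTC and 6.62 and 7.20 in sgPrdm12, without overlap. Non-overlap with lower sgPrdm12 values was found at 18.0% of all tested peaks. The log2 fold change was -0.50 ± 0.39 (edgeR adjusted p = 0.97), with log2 ratios of -0.39 and -0.46 within batches 1 and 2. Pole3 and Pole4 encode the histone-fold subunits of the leading-strand polymerase epsilon. Pole3 had 5.14 and 4.53 normalised reads in sgNTC and 5.09 and 6.40 in sgPrdm12, and Pole4 had 4.12 and 5.29 against 5.60 and 3.20. Both overlapped between groups, with log2 fold changes of 0.24 ± 0.55 and -0.07 ± 0.64. Poln was below the filter, with 5 and 19 reads in the sgNTC libraries against 5 and 4 with sgPrdm12. Poldip3, whose protein binds polymerase delta and acts in mRNA export and translation, had 11.8 and 9.07 normalised reads in sgNTC and 8.15 and 8.80 in sgPrdm12. These groups did not overlap, and the log2 fold change was -0.26 ± 0.35 (edgeR adjusted p = 1.00).

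Parp3, a poly(ADP-ribose) polymerase family member that acts at double-strand breaks, had the lowest fold change of the tested repair genes. Its peak (chr9:106476886-106477479), shared with the ribosomal RNA processing gene Rrp9, held 13 and 28 reads in the sgNTC libraries against 3 and 7 with sgPrdm12. The normalised values were 6.69 and 7.05 in sgNTC and 1.53 and 5.60 in sgPrdm12. Both sgPrdm12 libraries were lower, but by unequal amounts, with log2 ratios of -1.96 within batch 1 and -0.26 within batch 2. The log2 fold change was -1.11 ± 0.57 (95% interval -2.29 to 0.06; edgeR adjusted p = 0.93), and it was -0.29 without sgPrdm12 replicate 1 and -2.19 without sgPrdm12 replicate 2. Parp2 was below the filter, with 7 and 6 reads in the sgNTC libraries against 3 and 1 with sgPrdm12.

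Among end joining and ligase genes, Lig3, the ligase of single-strand break and mitochondrial DNA repair, had 7.20 and 8.82 normalised reads in sgNTC and 5.60 and 9.60 in sgPrdm12. The sgNTC values lay between the sgPrdm12 values, and the log2 fold change was -0.18 ± 0.41 (edgeR adjusted p = 1.00). Xrcc4, the partner of ligase IV in end joining, was below the filter with 12 and 6 reads in the sgNTC libraries against 6 and 5 with sgPrdm12. Fancm, the translocase that brings the Fanconi anaemia core complex to DNA, held 7 and 15 reads in the sgNTC libraries against 7 and 3 with sgPrdm12 and was also below the filter.

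**Figure D5:**
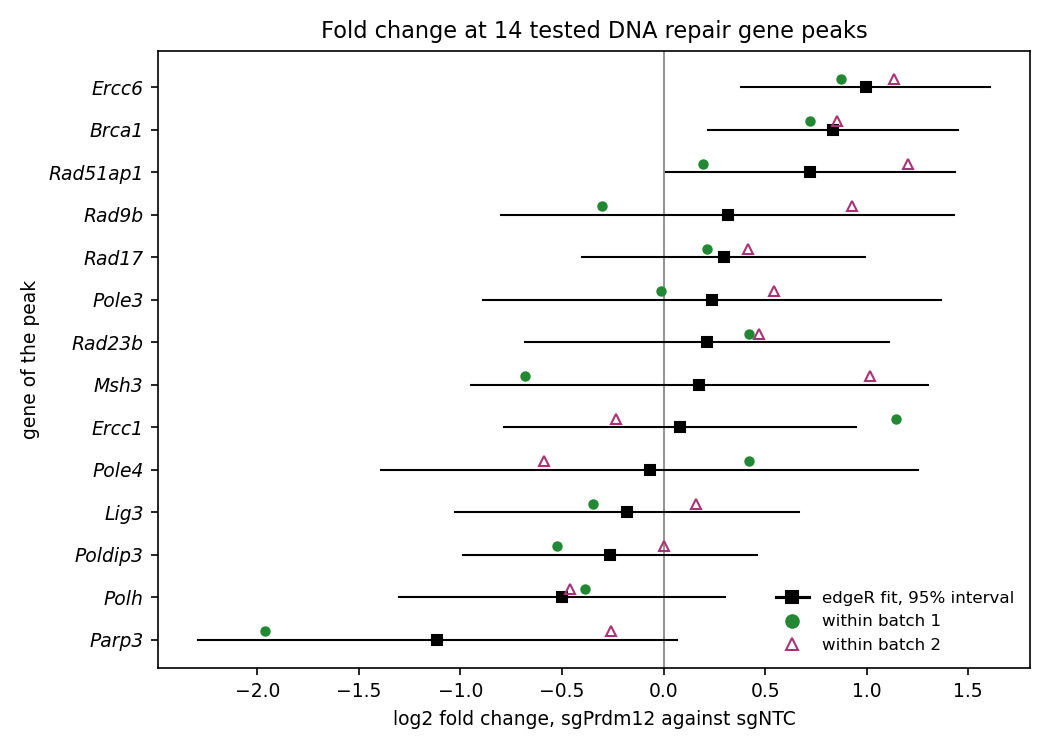
Log2 fold change of sgPrdm12 against sgNTC at 14 tested repair gene peaks (squares, edgeR fit; lines, 95% interval) with the log2 ratio within batch 1 (filled circles) and within batch 2 (open triangles). Intervals exclude 0 at Ercc6, Brca1 and Rad51ap1 before adjustment for the number of peaks, and the batches lie on opposite sides of 0 at 7 of the 14 peaks.

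Over the 15 tested peaks, sgPrdm12 was higher in both batches at 5 and lower in both at 2, against 26.8% and 22.8% of all tested peaks. The remaining 8 went in opposite directions in the batches, although the log2 ratio was only 0.00062 for Poldip3 in batch 2 and -0.014 for Pole3 in batch 1. The groups did not overlap at 7 of the 15, with 4 higher and 3 lower, against 16.4% higher and 18.0% lower of all tested peaks. Peaks shared with a second coding gene and unshared peaks both included values above and below 0: the median log2 fold change was 0.24 at 9 shared and 0.01 at 6 unshared tested peaks. It was 0.20 at 8 tested peaks with an NRF1 motif and 0.24 at 5 tested peaks with a known window and no such motif. The authors' deposited table gives log2 differences of 0.81 ± 0.66 at Ercc6, 0.60 ± 0.65 at Brca1 and -1.33 ± 1.02 at Parp3 (their standard errors), and by these values none of the 21 peaks had a 95% normal interval that excluded 0.

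The further DNA repair genes gave no peak past the test either. The 124 genes comprised 36 of excision repair, 13 of mismatch repair and replication clamps, 35 of double-strand break repair, 19 of crosslink repair and translesion synthesis and 21 of damage signalling. Their 43 genes with a peak gave 21 tested peaks, 11 above and 10 below 0, with 0 at an adjusted and 0 at an unadjusted p of 0.05 in edgeR (0% and 5.07% of all tested peaks) and a median log2 fold change of 0.01. The highest fold changes were those of Brip1, a helicase that binds Brca1, at 0.98 ± 0.69, of Xab2, which binds the damage sensor XPA, at 0.71 ± 0.44, and of Fen1, the flap nuclease, at 0.69 ± 0.37. The lowest were those of Tdp1, which removes stalled topoisomerase from DNA ends, at -1.15 ± 0.63, of Gtf2h5, a subunit of the helicase complex TFIIH, at -0.76 ± 0.40, and of Usp1, which removes ubiquitin from the Fanconi anaemia complex, at -0.29 ± 0.43. The damage kinase genes Atm and Prkdc had -0.13 ± 0.45 and -0.12 ± 0.46, the former at a peak shared with Npat and the latter at a peak shared with Mcm4; both were named after their values were seen.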

How the data were processed

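Read counts per peak were deposited as 1 table for all 4 libraries on build GRCm38, and the authors' raw counts were used as deposited. The table also holds the authors' log2 means, log2 difference and its standard error, a score with no unit of its own; per the file headers these are Con.mean, Treat.mean, Mval and Mval.se. Per the submitters' processing notes, Bowtie2, MACS2, DiffBind, cutadapt, Picard, ChIPseeker and HOMER were used; no source used here gives versions, order or whether peaks were called on pooled reads. The members and lists were chosen with earlier results of these data known.

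All 1125 peaks passing filterByExpr (minimum count 10) were fitted with edgeR 4.0.16 in R 4.3.3: TMM, robust quasi-likelihood F test, group as the only term, Benjamini-Hochberg adjustment at 0.05. Standard errors were derived from each coefficient and its F statistic. Normalised counts are per 10000 reads in tested peaks after TMM, and within-batch log2 ratios add 0.5 reads. The fit was tested on simulated data. DESeq2 1.42.0, other scalings, filters, distances and left-out libraries were alternatives. Genes, gene ends and promoters came from RefSeq tables of GRCm38.p6, without exons; promoter sequences matched 70 of 92 genes. Values of some repair genes with a peak are not reported here; every other one is named, and of the further lists the 3 highest and 3 lowest tested genes.

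Replicate numbers mark a shared batch in the labels, so they pair the libraries; deviations of same-numbered libraries correlated at r = 0.06 over 1125 peaks. With 2 libraries against 2, an exact permutation test of a single value cannot go below p = 0.333.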

Additional observations from a re-analysis of the deposited data

How the results depend on the processing

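In all 11 refits (other scalings, filters, DESeq2, the batch term, each library left out) 0 of all peaks and 0 of the repair gene peaks passed an adjusted p of 0.05. Adding the replicate block (batch) left 0 calls, 2 repair gene peaks at an unadjusted p of 0.05 in place of 3, and a median log2 fold change of 0.17; it changed no other call. Without a filter on low counts the median was 0.05 over 21 peaks, and with each library left out it ranged from 0.03 to 0.21. The difference in the share of reads was 0.0506 percentage points of all peaks, 0.130 of gene-end peaks, and 0.0290 to 0.0723 with 1 library left out. Tying peaks within 500 or 5000 bases, or leaving out the Poldip genes, gave medians of 0.20, 0.14 and 0.20. Of 165 refitted fold changes of single genes, 10 changed sign, all with a library left out, at 7 genes, among them Ercc1, Lig3, Msh3, Pole4, Rad23b and Rad9b; the cause was not tested. With a median of 51 reads per repair gene peak over the 4 libraries, depth limits the precision of every single gene.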
